A study of Mus musculus with 4 samples.

Results

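RAB GTPases are small GTPases that mark membranes inside the cell and steer vesicles between them. In the GTP-bound form a RAB recruits effectors that move, tether and fuse vesicles, exchange factors switch it on, and GTPase-activating proteins switch it off. In dendritic cells (DC) they act along the path from uptake of antigen through endosomes and phagosomes to lysosomes, and in the return of MHC molecules to the cell surface. The RAB genes described here are the protein-coding genes of GENCODE M1 whose symbol is Rab, a number and at most 1 letter. This rule gave 56 of 22367 protein-coding genes, on 18 chromosomes, and leaves out the genes of RAB-interacting proteins, whose names are longer.

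The data are Runx3-bound regions of splenic CD11chiMHCII+CD4+ DC of mice labelled C57BL/6, isolated by CD11c enrichment and sorting from about 15 mice, so that each library is a pool of animals. Runx3 is a RUNX family transcription factor. There were 2 immunoprecipitates with an in-house polyclonal anti-Runx3 antibody and 2 input controls of whole cell extract, 1 of which is labelled C57BL/7, and no group carried a deletion or a treatment. The labels give no age. The authors pooled the samples in 1 peak call, so the list holds no value per replicate, and no spread between replicates or test between conditions can be given from it. The list holds 15121 peaks with their coordinates and a MACS2 score of unstated unit, which served here only to rank peaks within the list. The file holds no read counts, so depth per peak is unknown and a gene without a peak is one where none was called. Expression was not measured in these files, so the labelled cell type could not be checked against its markers, and which RAB genes these cells express was not analysed here.

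A peak was placed at a RAB gene when its centre lay in the gene body or within 10 kb of a transcription start site (TSS) of the gene. By this rule 60 peaks lay at 33 of the 56 RAB genes, or 58.9% (Wilson 95% interval 45.9% to 70.8%, for counting error alone). Over all protein-coding genes 39.9% had a peak under the same rule. No peak was shared by 2 RAB genes, and 17 genes had 1 peak, 9 had 2 and 5 had 3. Rab37 had 4 peaks and Rab27a had 6, so 2 genes had 4 or more, as did 2.80% of all protein-coding genes. Within 1 kb of a TSS 24 RAB genes had a peak, or 42.9%, beside 24.9% of all protein-coding genes. A peak in the upper quartile of the list, with a score of 23.2 or higher, lay at 15 RAB genes, or 26.8%, beside 13.9% of all protein-coding genes.

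The sequences below come from RAB peaks that hold the RUNX hexamer TGTGGT, in order of score and with at most 1 peak for each gene, where a stretch free of annotated UTRs could be printed. Each is on the plus strand of mm9, 5′ to 3′, within the peak and around the hexamer nearest the centre that allowed it. Capitals mark TGTGGT or its reverse complement ACCACA.
Rab8a, intron 2, chr8:74693235-74693334: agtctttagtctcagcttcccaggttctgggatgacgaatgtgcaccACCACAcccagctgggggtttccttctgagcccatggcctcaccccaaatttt
Rab35, upstream, chr5:116078243-116078342: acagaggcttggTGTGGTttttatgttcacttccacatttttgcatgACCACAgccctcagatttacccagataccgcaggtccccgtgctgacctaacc
Rab20, intron 1, chr8:11463992-11464091: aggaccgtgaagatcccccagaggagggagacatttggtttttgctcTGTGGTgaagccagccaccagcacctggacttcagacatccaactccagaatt
Rab33b, promoter, chr3:51287788-51287887: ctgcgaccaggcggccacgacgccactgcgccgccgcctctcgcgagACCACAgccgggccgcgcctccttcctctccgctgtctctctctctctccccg
Rab30, promoter, chr7:99889583-99889682: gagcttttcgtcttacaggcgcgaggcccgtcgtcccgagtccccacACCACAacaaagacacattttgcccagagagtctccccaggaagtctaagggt
Rab8b, intron 1, chr9:66721533-66721632: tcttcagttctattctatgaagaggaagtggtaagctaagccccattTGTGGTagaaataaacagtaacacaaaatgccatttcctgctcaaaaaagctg
Rab31, intron 5, chr17:66024105-66024204: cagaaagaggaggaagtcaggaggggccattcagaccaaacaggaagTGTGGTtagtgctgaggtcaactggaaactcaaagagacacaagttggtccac
Rab39, intron 1, chr9:53508724-53508823: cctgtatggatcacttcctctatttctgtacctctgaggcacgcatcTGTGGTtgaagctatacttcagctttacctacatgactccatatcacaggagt

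The next sequences come from RAB peaks without TGTGGT, chosen in the same way. Capitals mark TGCGGT or its reverse complement, a relative of the hexamer with C in place of a T, and the Rab39 promoter stretch holds no such match.
Rab19, upstream, chr6:39329429-39329528: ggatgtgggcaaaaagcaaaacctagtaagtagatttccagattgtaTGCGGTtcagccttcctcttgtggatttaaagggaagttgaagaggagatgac
Rab39, promoter, chr9:53514338-53514431: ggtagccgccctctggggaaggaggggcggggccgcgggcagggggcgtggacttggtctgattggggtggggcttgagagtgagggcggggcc
Rab6, promoter, chr7:107755773-107755872: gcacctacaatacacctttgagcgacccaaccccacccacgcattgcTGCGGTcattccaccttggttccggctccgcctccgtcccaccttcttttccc
In both sets the stretch of 26 bases around each capitalised hexamer occurs 1 time in the assembled chromosomes. The Rab31 stretch holds the ETS hexamer GGAAGT 2 times, and the second one runs into TGTGGT, with the last T of GGAAGT as the first T of TGTGGT.

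**Figure D1:**
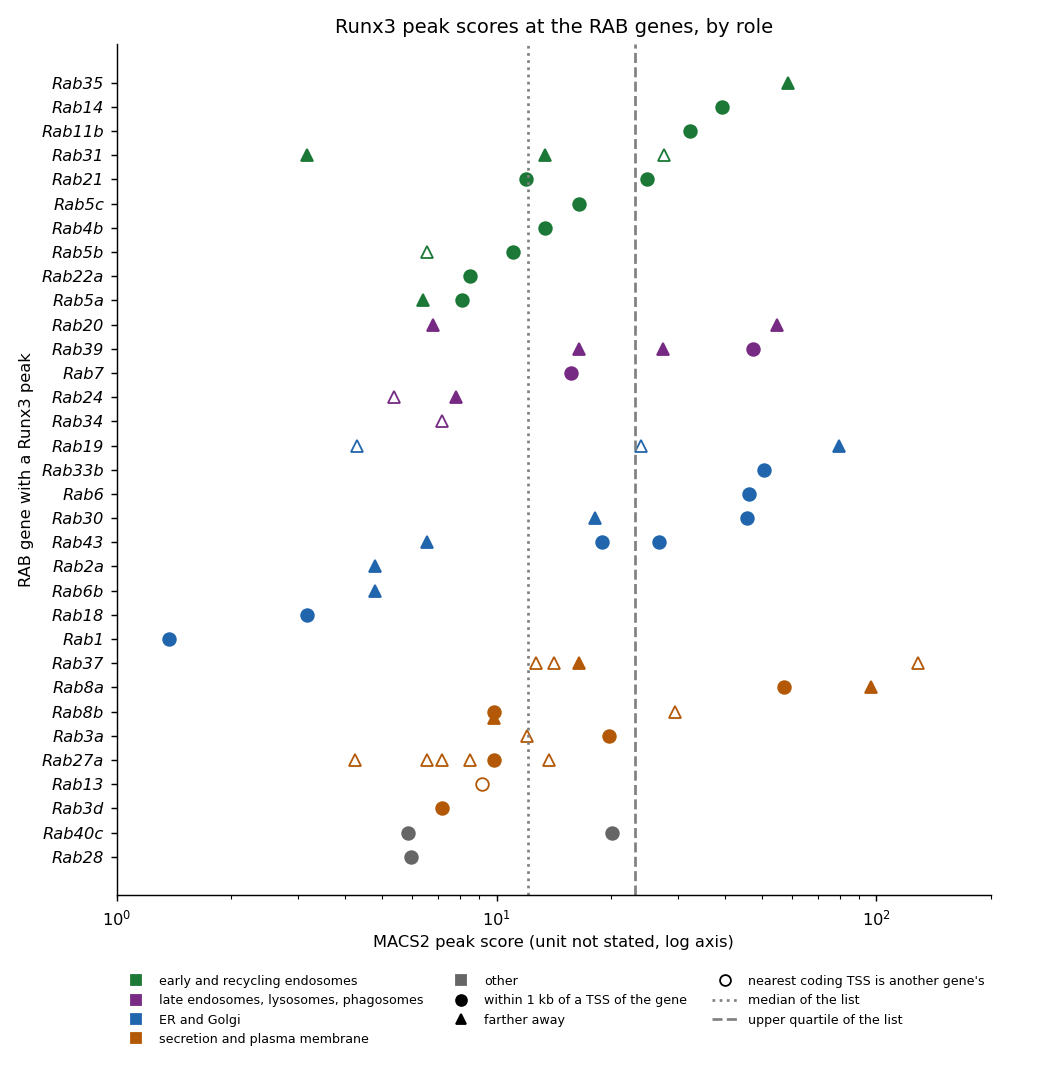
Scores of the 60 Runx3 peaks (log axis, unit not stated) at the 33 RAB genes with a peak, grouped by role; circles lie at most 1 kb from one of the gene's TSSs, triangles farther away, and open symbols mark peaks whose nearest protein-coding TSS belongs to another gene. Scores ran from 1.37 at Rab1 to 129 inside Rab37, and the grey lines are the median (12.1) and upper quartile (23.2) of the whole list.

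The RABs of early and recycling endosomes take in surface cargo and return it to the plasma membrane. Of their genes 10 of 15 had a peak, or 66.7% (Wilson 95% interval 41.7% to 84.8%), beside 39.9% of all protein-coding genes. The 15 peaks of this group had a median score of 13.4. The strongest was at Rab35 (chromosome 5, 116081938 to 116097745, plus strand), whose product acts in fast recycling. This peak, from 116078013 to 116078633, has its centre 3615 bp upstream of the TSS. Its score of 58.4 was at the percentile 95.2 of the list, and it holds TGTGGT 3 times. Rab14, which acts between the Golgi and early endosomes, had 1 peak from 35056306 to 35056745 on chromosome 2, in exon 1 and over a TSS, with a score of 39.1. Rab21, a regulator of integrin traffic, had a peak of 24.9 in intron 1, 718 bp from its TSS, and a peak of 12 at 133 bp upstream.

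Rab5 defines the early endosome, and all 3 of its genes had a peak centred within 100 bp of a TSS. The promoter peak scored 16.4 at Rab5c (chromosome 11, 100599360 to 100599801), 11.1 at Rab5b (chromosome 10, 128132987 to 128133687) and 8.13 at Rab5a (chromosome 17, 53618289 to 53618637). None of these reached the upper quartile of the list, and of the 3 TGTGGT was present in the Rab5b peak alone, 310 bp from its centre. Rab5a had a further peak in intron 2 with a score of 6.40, and Rab5b one 8890 bp upstream with a score of 6.57, which lies 107 bp from a TSS of Cdk2.

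In the Rab11 pair, which marks the recycling endosome, the paralogs differed in that a peak was called at only 1 of them. Rab11b (chromosome 17, 33882895 to 33897475, minus strand) had a peak over its TSS from 33897045 to 33897531 with a score of 32.3 and 1 TGTGGT. Rab11a had none, and the nearest peak centre was 22611 bp from its TSS. Rab4b likewise had a promoter peak of 13.4, in sequence that also belongs to the overlapping gene Mia1, while the nearest peak to a Rab4a TSS was 143046 bp away. Rab31 and Rab22a, which act between the Golgi and endosomes, both had peaks but in different places. At Rab22a a promoter peak scored 8.49. Rab31, a gene of 121 kb, had 3 intronic peaks with scores of 27.6 in intron 5, 13.4 in intron 1 at 1273 bp from a TSS and 3.17 farther inside intron 1. The nearest protein-coding TSS to the peak of 27.6 is one of Txndc2, 32624 bp away. Rab15, Rab17 and Rab25, the latter 2 known from epithelial cells, had no peak.

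Of the RABs of late endosomes, lysosomes and phagosomes 5 of 9 genes had a peak, with 9 peaks of median score 15.7. This share was 55.6% (Wilson interval 26.7% to 81.1%), and the 39.9% of all protein-coding genes lies within the interval. Rab20, which acts in phagosome maturation (chromosome 8, 11453392 to 11478638, minus strand), had its strongest peak deep in intron 1. It runs from 11463523 to 11464574, is 1052 bp wide, the widest at a RAB gene, and lies 14590 bp from the TSS. It scored 54.7 and holds TGTGGT 3 times, the nearest 7 bp from its centre. Rab39, which is found on late endosomes and phagosomes, had 3 peaks on chromosome 9. The promoter peak from 53514085 to 53514679 scored 47.3 without a TGTGGT, and the peaks in intron 1 scored 27.4 and 16.5 with 1 each.

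Rab7, the RAB of the step from late endosome to lysosome, had 1 peak, from 87995078 to 87995405 on chromosome 6. Its centre is 2 bp from a TSS, and it scored 15.7 at the percentile 61.6 without a TGTGGT. Rab24, a RAB linked to autophagy, had peaks of 7.84 and 5.36, the latter 271 bp from a TSS of Mxd3. The peak of 7.20 at Rab34 lies 5044 bp upstream of that gene, inside Rpl23a and 198 bp from a TSS of Rpl23a. Rab32 and Rab38, the pair of lysosome-related organelles, had no peak, and the nearest centres were 81483 and 72295 bp from their TSSs. Rab9 and Rab9b, which act in return of receptors from late endosomes, had none either and lie on the X chromosome.

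All 4 X-linked RAB genes, Rab9, Rab9b, Rab33a and Rab39b, were without a peak. Of the 932 protein-coding genes of the X chromosome 14.5% had a peak, beside 41.1% of those of the autosomes, so the X-linked RAB genes lay in a part of the genome with few peaks.

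The RABs of the endoplasmic reticulum and the Golgi had a peak at 9 of 13 genes, with 14 peaks of median score 18.6. Their share was 69.2% (Wilson interval 42.4% to 87.3%), and the 39.9% of all protein-coding genes lies just below the interval. Rab19 (chromosome 6, 39331174 to 39340379, plus strand) had a peak of 79.9, from 39329161 to 39330137 with its centre 1525 bp upstream, at the percentile 97.7. It holds no TGTGGT but 3 matches to the wider RUNX pattern, and 1 GGAAGT. The other peaks near Rab19 scored 24.1 and 4.30 and lie inside the neighbour Slc37a3. Rab33b, of the Golgi and autophagy, had a peak over its TSS from 51287603 to 51288280 on chromosome 3 with a score of 50.4. Rab30 had a peak of 45.6 at 277 bp upstream of its TSS and another of 18.2 at 3798 bp upstream.

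Rab6, which directs return from endosomes through the Golgi, had a peak of 46.2 from 107755535 to 107756477 on chromosome 7. It covers the TSS of Rab6, lies inside Mrpl48 as well and is within 1 kb of a TSS of that gene, so it cannot be assigned to Rab6 alone. At its paralog Rab6b a peak of 4.79 was called in intron 2. Rab43 had 3 peaks in intron 1 with scores of 26.7, 18.9 and 6.57. The peaks of Rab1, Rab18 and Rab2a were weak. The peak of Rab1, which acts from the ER to the Golgi, 480 bp upstream, scored 1.37, at rank 15119 of 15121. The peak at Rab18, 162 bp upstream, scored 3.17, and that of Rab2a, in intron 6, scored 4.79. Rab1b, Rab2b, Rab33a and Rab36 had no peak.

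Among the RABs of secretion and the plasma membrane 7 of 13 genes had a peak, with 19 peaks of median score 12. The share was 53.8% (Wilson interval 29.1% to 76.8%), and the 39.9% of all protein-coding genes lies within the interval. Rab8a, which acts in exocytosis and in the growth of cilia (chromosome 8, 74685099 to 74707803, plus strand), had 2 peaks, both among the strongest at any RAB gene. The peak from 74693070 to 74693709 in intron 2 scored 96.8 at the percentile 98.8 and rank 178. The peak from 74684462 to 74685170 over the promoter scored 57.0 and holds TGTGGT 2 times. In the intron 2 peak the hexamer begins at 74693282 and lies 105 bp from the centre. Rab8b, its paralog, had a peak of 29.5 in intron 1, with TGTGGT 10 bp from the centre. That peak lies 45889 bp from a TSS of Rab8b and 39039 bp from one of Aph1c, the nearest protein-coding TSS. The promoter peak of Rab8b and another peak in its intron 1 both scored 9.84 and hold no TGTGGT.

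The highest score at any RAB gene, 129 at the percentile 99.6 and rank 69, was found inside Rab37, a RAB of secretory granules (chromosome 11, 114952745 to 115023550, plus strand). The peak, from 114994872 to 114995657, lies in intron 1 of Rab37 but 41 bp from a TSS of Cd300lf, a myeloid surface receptor whose gene lies within that intron, and its centre is in an annotated UTR. It holds TGTGGT 11 bp from its centre and GGAAGT 3 times. The next peak, of 14.2, is 1213 bp from the same TSS of Cd300lf. Another, of 12.7, lies downstream of Rab37 and 57 bp from a TSS of Slc9a3r1. Only the peak of 16.5, in intron 2 and 1447 bp upstream of an internal TSS of Rab37, has a Rab37 TSS as its nearest protein-coding TSS.

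Rab27a, which docks lysosome-related organelles and secretory granules at the plasma membrane (chromosome 9, 72892672 to 72945399, plus strand), had the most peaks, 6, with scores between 4.23 and 13.7. The promoter peak, 93 bp upstream, scored 9.84. The strongest lies in intron 1 at 28534 bp from the TSS, and weaker ones lie in introns 2, 4 and 5. All 4 intronic peaks are closer to a TSS of 2410004A20Rik than to one of Rab27a. The remaining peak, of 8.49, is 39 bp from a TSS of Pigb. Rab27b, the paralog, is 162 kb long and had no peak, with the nearest centre 294782 bp from a TSS.

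In the Rab3 family of regulated secretion, Rab3a had a promoter peak of 19.8 with 3 TGTGGT and a peak of 12 that is 204 bp from a TSS of Mpv17l2. The promoter peak of Rab3d scored 7.20, and Rab3b and Rab3c, a gene of 227 kb, had none. The Rab13 peak, of 9.16, covers a start region shared with Rps27, 37 bp from the TSS of Rab13 and 7 bp from one of Rps27. Rab10, Rab12 and Rab26 had no peak. Of the 6 remaining RAB genes 2 had a peak, or 33.3% (Wilson interval 9.68% to 70.0%), beside 39.9% of all protein-coding genes. The intervals of all role groups overlap, and no difference between the roles was tested. Rab40c, part of a ubiquitin ligase, had peaks of 20.1 and 5.86, both within 1 kb of a TSS, and Rab28 had a promoter peak of 5.96. Rab23, Rab39b, Rab40b and Rab44 had none.

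By the placing rule itself, the 23 RAB genes without a peak had no peak centre within 10 kb of a TSS. For 17 of them no centre lay within 30 kb of a TSS, and the distances ran from 11358 bp at Rab2b to 376841 bp at Rab12. The same count was not made for all protein-coding genes without a peak, so whether these distances are unusual is not known. Just outside the limit of 10 kb were Rab2b and Rab1b (12603 bp), and just inside, among peaks outside the gene body, were those of Rab37 at 9081 bp and Rab5b at 8890 bp. Gene length differed little between the classes, with a median of 25.1 kb for RAB genes with a peak and 22.5 kb for those without.

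**Figure D2:**
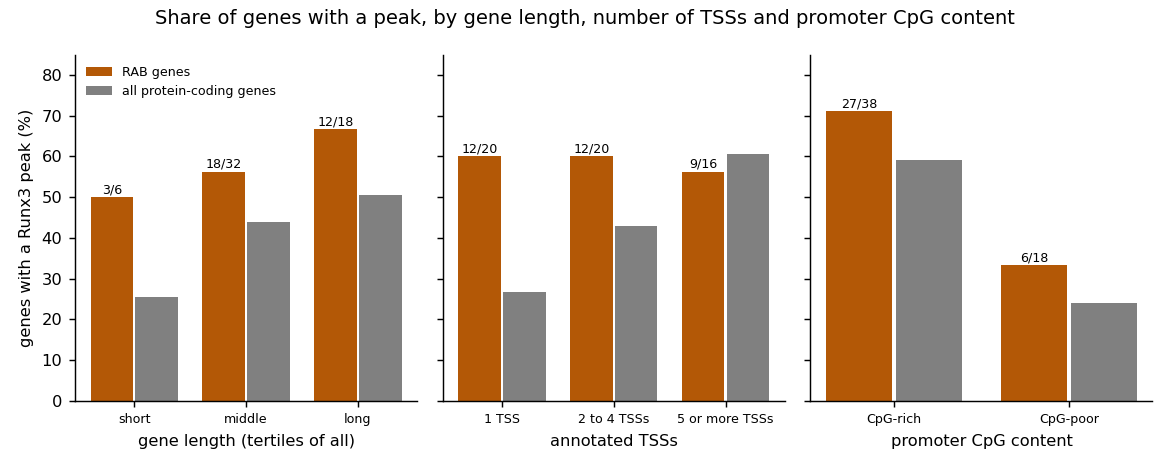
Share of genes with a Runx3 peak (%, bars from 0) among RAB genes and all protein-coding genes, in tertiles of gene length, by number of annotated TSSs and by CpG content of the promoter; counts of RAB genes stand above their bars. RAB genes with 5 or more TSSs were at 56.2% beside 60.6% of all such genes, and RAB genes with CpG-rich promoters at 71.1% beside 59.0%.

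Long genes, genes with many TSSs and CpG-rich promoters collected more peaks throughout the genome, so the share of RAB genes was also set beside genes alike in these features. In tertiles of length over all protein-coding genes, 3 of 6 short RAB genes (50.0%, beside 25.4% of all), 18 of 32 of middle length (56.2%, beside 43.9%) and 12 of 18 long ones (66.7%, beside 50.5%) had a peak. By TSSs the gap was widest for genes with 1 TSS, of which 12 of 20 RAB genes (60%) and 26.7% of all genes had a peak. It was turned around for genes with 5 or more TSSs, with 9 of 16 RAB genes (56.2%) and 60.6% of all genes.

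Promoter CpG content was measured as observed over expected CpG in 500 bp on either side of the 5′ end of the gene, with 0.6 as the limit of CpG-rich. By this measure 38 RAB genes were CpG-rich, and 27 of them (71.1%) had a peak, beside 59.0% of all CpG-rich genes. Of the 18 CpG-poor RAB genes 6 (33.3%) had one, beside 24.0% of all. These gaps were narrower than that over all genes, 58.9% beside 39.9%. The part of promoter type and of expression in the count of RAB genes was not tested.

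**Figure D3:**
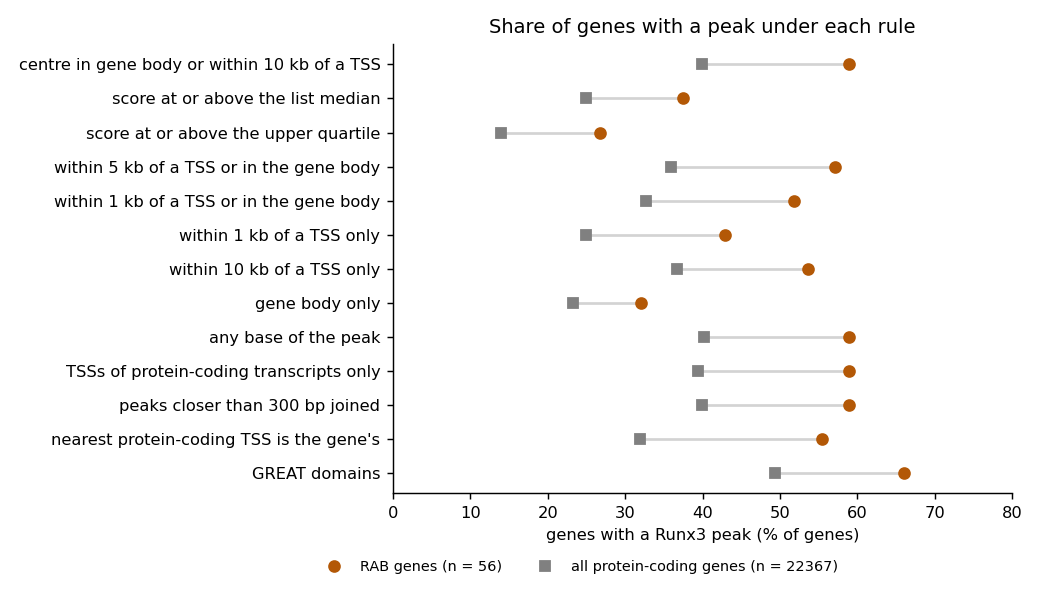
Share of genes with a Runx3 peak (%) among the 56 RAB genes (circles) and all 22367 protein-coding genes (squares) under each way of placing or filtering peaks. The RAB share ran from 26.8% for peaks in the upper quartile of score to 66.1% with GREAT domains, and the share of all genes from 13.9% to 49.3%.

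Of the 60 peaks 27, or 45.0% (Wilson 95% interval 33.1% to 57.5%), had their centre at most 1 kb from one of the RAB gene's TSSs, and 19 covered such a TSS. A further 21 lay in introns, 9 upstream and 3 downstream. In the whole list 5486 of 15121 peaks lay within 1 kb of a protein-coding TSS, and 11727 were placed at protein-coding genes. The split into introns, upstream and downstream was not counted over all genes. The median score was 15.7 within 1 kb of a TSS, 13.4 in introns and 8.49 upstream. Over all RAB peaks it was 13.1, with an interval by order statistics from 8.49 to 18.2, beside 12 for peaks at all protein-coding genes. The upper quartile of the list held 30.0% of RAB peaks and 25.1% of peaks at all protein-coding genes. RAB peaks near a TSS were rich in CpG, with a median observed over expected CpG of 0.717, against 0.219 for those farther away. In the whole list the medians were 0.761 within 1 kb of a protein-coding TSS and 0.227 farther away.

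For 17 of the 60 peaks, or 28.3%, the nearest protein-coding TSS was that of another gene. These had a median score of 9.16, and the other 43 had 15.7. With peaks of the latter kind alone 31 RAB genes had a peak, or 55.4%, beside 31.9% of all protein-coding genes. Rab13 and Rab34 then had none. The share of peaks nearest to a TSS of another gene was not counted over all genes.

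**Figure D4:**
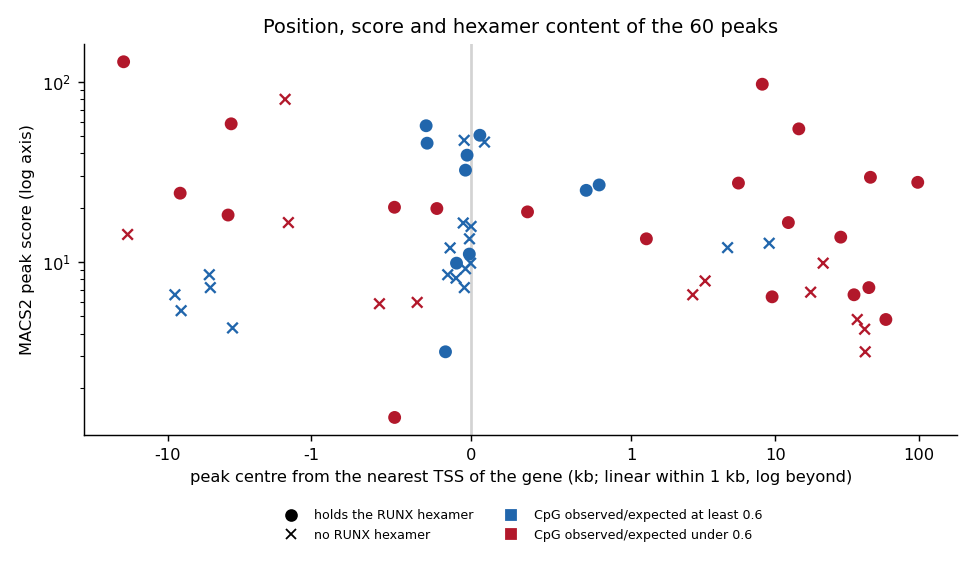
Each of the 60 RAB peaks by signed distance of its centre from the nearest TSS of the gene (kb, linear within 1 kb and log beyond; positive is downstream) and MACS2 score (log axis), with hexamer content as symbol and CpG content as colour. Peaks with a RUNX hexamer had a median score of 22.1 and those without it 8.49.

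The RUNX hexamer TGTGGT was searched over the full width of each peak, on both strands, and was found in 30 of 60 RAB peaks, or 50.0% (Wilson 95% interval 37.7% to 62.3%), beside 54.0% of all peaks. The study reports a larger share of bound regions with its RUNX motif. That motif came from a de novo search, and how its matches were counted is not stated, so the shares are not alike in measure. Windows of the same width 10 kb downstream of the RAB peaks held TGTGGT in 23 of 60, or 38.3%, and those downstream of all peaks in 30.9%. For these windows downstream means toward higher coordinates, whatever the strand of the gene, and they were not matched for GC or CpG content. In the 200 bp around the centre 19 RAB peaks had it, or 31.7% (Wilson 95% interval 21.3% to 44.2%), beside 41.8% of all peaks. Both list shares lie within the intervals of the RAB peaks. The 38.3% of the RAB windows also lies within the interval for the full width, near its lower end. The wider pattern, which also admits CGTGGT, the form TGCGGT and the form CGCGGT, was present in 40 of 60 RAB peaks, or 66.7%, and in 76.6% of all peaks. At 11 of the 33 genes with a peak, among them Rab6, Rab7, Rab5c and Rab4b, no peak held TGTGGT. The same count was not made for all protein-coding genes with a peak.

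The hexamer went with the score. The median was 22.1 for RAB peaks with TGTGGT and 8.49 for those without, and in the whole list it was 14.2 and 10.5. Of the 18 RAB peaks in the upper quartile 15 held it, and of the other 42 peaks 15 did. In the whole list 65.0% of peaks in the upper quartile and 50.3% of the others held it. The median width was 476 bp for RAB peaks with the hexamer and 356 bp for those without, so a longer stretch was searched in the former. In 17 of the 30 peaks the nearest hexamer began or ended near the centre, with its middle within 50 bp.

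**Figure D5:**
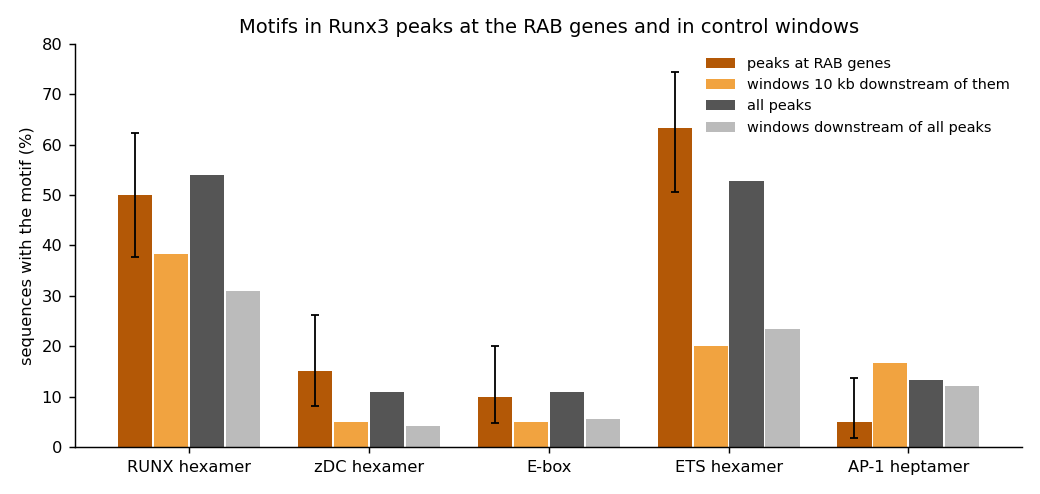
Share of sequences (%, bars from 0) that hold the RUNX, zDC, E-box, ETS and AP-1 motifs in RAB peaks and in all peaks. Beside each are equal windows 10 kb downstream, toward higher coordinates. Error bars are Wilson 95% intervals of the RAB peaks. The ETS hexamer was in 63.3% of RAB peaks and 20% of their windows.

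GGAAGT, a core bound by ETS factors such as PU.1 in myeloid cells, was the most frequent of the motifs searched as single words, in 38 of 60 RAB peaks, or 63.3% (Wilson 95% interval 50.7% to 74.4%). It was in 20% of the windows beside them, in 52.8% of all peaks and in 23.5% of the windows of all peaks. It was found in 25 of 33 RAB peaks farther than 1 kb from a TSS and in 13 of 27 nearer ones. The same split was not counted over all peaks, so whether it is particular to RAB peaks is not known. GGAAGT and TGTGGT were together in 20 RAB peaks, or 33.3%, and in 29.7% of all peaks.

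TGACGT, which the study links to the DC factor zDC, was in 9 RAB peaks, or 15.0%, beside 11.0% of all peaks and 5% of the RAB windows. Here the order was the other way, with 7 of the 27 RAB peaks near a TSS and 2 of the 33 farther away. These counts are small, and this split was not counted over all peaks either. The E-box CACGTG, a palindrome bound by regulators of lysosomal genes among others, was in 6 RAB peaks, or 10%, and in 10.9% of all peaks. The promoter peak of Rab5a held it 2 times and TGACGT 2 times. The AP-1 heptamer TGANTCA was in 3 RAB peaks, or 5%, against 16.7% of their windows and 13.2% of all peaks. A pair of GAAA runs with 2 bases between them, as in interferon response elements, was in 1 RAB peak, at Rab43, and in 6.48% of all peaks. A match is a description of letters and not a site of binding.

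Genes that load, switch or read RABs were counted in the same way, from a list of 93 symbols of which 91 matched the annotation. Of these 60, or 65.9% (Wilson 95% interval 55.7% to 74.8%), had a peak, beside 39.9% of all protein-coding genes. They are longer than the RAB genes, with a median of 44.3 kb against 23.0 kb, and have more annotated TSSs, with a median of 4 against 2.5. Of all genes in the longest tertile 50.5% had a peak. By function 18 of 24 exchange factors, 17 of 21 GTPase-activating proteins, 21 of 38 effectors and 4 of 8 genes of prenylation and delivery had a peak. The genes of this list named here were chosen after their values were seen. Tbc1d4, a GTPase-activating protein for RABs of exocytosis that include Rab8a, had 10 peaks with a highest score of 133. Rin3, an exchange factor of the Rab5 family, had 8 peaks with a highest score of 54.3. Tbc1d10b, of the family that acts on Rab27a and Rab35, had 1 peak of 64.0. Unc13d, the effector of Rab27a in granule release, had 3 peaks with a highest score of 41.1, and Rilpl2 had 2 with 49.4.

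Families of other traffic and processing genes were set beside the RAB genes under the same rule. Of 25 ARF and ARL genes, another family of small GTPases of vesicle traffic, 20 had a peak, or 80% (Wilson 95% interval 60.9% to 91.1%). The share over all protein-coding genes, to be read beside each family, was 39.9%. Of 41 proteasome genes 23 had one, or 56.1%, and of 13 lysosomal proteases 11, or 84.6% (Wilson 95% interval 57.8% to 95.7%). The median score of their peaks was 8.16, 15.4 and 12, in that order, beside 13.1 at the RAB genes. The intervals of the ARF and ARL genes and of the lysosomal proteases overlap that of the RAB genes, and no difference between the families was tested.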

How the data were processed

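Reads of 50 bp that the authors placed uniquely on mm9 by bowtie went into a MACS2 call of both Runx3 samples against both inputs. CASAVA 1.8 is named in the submitters' processing notes. Other versions, the threshold and the handling of duplicates are not given in the sources used here. The deposited score comes from MACS2, and its unit is unstated.

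Positions are on mm9, counted from 1, with sequence from NCBIM37, which is mm9, and genes of GENCODE M1 other than mitochondrial ones. The longest coding transcript of a gene set the numbers of its introns and exons. Control windows lay 10 kb toward higher coordinates, whatever the strand of the gene. Windows that overlapped a peak or unsequenced bases were left out. Intervals cover counting error only. The members, gene lists, role groups and motifs were chosen with earlier results of these data known, and the bands of TSS number and CpG content after seeing the data. Named in full were the 12 genes with the highest score of any peak, those with 4 or more peaks and fixed sets of paralogs. No test was run. The code that places peaks was run on simulated peaks whose expected gene was set by the same rule. This checks the code and not whether the rule finds the right gene. Python 3.11.15, numpy 2.4.6, pandas 2.3.3, scipy 1.17.1 and matplotlib 3.10.9 were used.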

Additional observations from a re-analysis of the deposited data

How the results depend on the processing

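The 33 RAB genes with a peak became 21 with peaks at or above the list median of score, 15 with those in the upper quartile and 18 with peaks in the gene body alone, and the 60 peaks became 31, 18 and 30. All other ways of placing peaks gave 24 genes (within 1 kb of a TSS only) to 37 genes (GREAT domains). The share of RAB peaks with TGTGGT, 50.0%, was 31.7% in the central 200 bp and 66.7% with the wider pattern. The median score was 15.7 both for peaks within 1 kb of a TSS and for those nearest to a RAB TSS. In every setting the share of RAB genes with a peak was above that of all protein-coding genes, which include genes that CD4+ DC may not express. The settings all filter or place the same peak list, so they are not separate support. Among genes with 5 or more TSSs the RAB share, 56.2%, was below the 60.6% of all such genes. No paired analysis was possible because the list has no value per replicate, and leaving out a replicate was not possible for the same reason. Depth per peak is unknown, so weak peaks such as that of Rab1 have no check.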
